A study of Saccharomyces cerevisiae with 16 samples.

Results

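Protein folding in the endoplasmic reticulum (ER) and the unfolded protein response of budding yeast were followed through 10 genes across 4 groups of cells. They are IRE1 (YHR079C), HAC1 (YFL031W), KAR2 (YJL034W), LHS1 (YKL073W), SIL1 (YOL031C), JEM1 (YJL073W), PDI1 (YCL043C), EUG1 (YDR518W), ERO1 (YML130C) and DER1 (YBR201W). These 10 members were chosen by their function from the 5404 genes that could be tested, and all 10 were measured, each by 1 probe set. Expression was measured on 16 Affymetrix arrays, 4 per group, in wild-type strain BY4741, a haploid laboratory strain of mating type a that lacks several nutrient marker genes. Cells in early exponential growth in rich glucose medium at 30 °C were left untreated, or received 0.05 mM acrolein, 0.3 mM H2O2 or 0.016 mM NEM, each for 1 h. Acrolein is a reactive unsaturated aldehyde and H2O2 is hydrogen peroxide. NEM is read here as N-ethylmaleimide, a compound that reacts with thiols, although only the 3 letters stand in the labels. The values are log2 signals that the authors normalised with GCRMA, so a difference of 1 is a doubling of signal. Nothing in the labels ties the 4 arrays of a group to separate cultures, so the p-values measure the spread between arrays, which may be technical.

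Proteins that enter the secretory pathway fold in the ER lumen with the help of chaperones and of enzymes that form disulfide bonds. When unfolded proteins build up there, the membrane sensor Ire1 cuts the HAC1 messenger RNA. The tRNA ligase Trl1 joins the ends, and the spliced message is translated into Hac1, a transcription factor that raises chaperone, oxidoreductase, glycosylation and degradation genes. KAR2, PDI1, ERO1, LHS1, SIL1, JEM1, EUG1 and DER1 are all known targets of this response. Because HAC1 is controlled mainly by splicing, its total signal on an array does not report how much Hac1 protein is made. The sources used here do not say where its probes lie relative to the intron.

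The strain labels were checked first. URA3 and MET17, both deleted from BY4741, read 1.92 on all 16 arrays, the lowest value of the file, and LEU2 read 1.92 to 1.98. HIS3, deleted only in part, read 11.06 to 12.27 and gave no check. The a-factor genes MFA1 and MFA2 read 12.54 to 13.50, and the alpha-factor genes MF(ALPHA)1 and MF(ALPHA)2 read 1.92 to 2.97. Of the other genes specific to alpha cells, STE3 read 4.44 to 7.59 and SAG1 10.79 to 11.97. SAG1 went against the check, as it read above ASG7, a gene specific to a cells (7.87 to 9.83). The other genes specific to a cells were STE2 (12.44 to 13.48), STE6 (11.95 to 12.44) and BAR1 (10.78 to 12.32). Array medians ran from 11.85 to 11.92. Acrolein replicate 1 stood apart, with a mean ribosomal RNA signal of 15.48 against at most 12.64 on the other 15 arrays (8.75 to 11.55 in the control). Its 3′ minus 5′ signal was 1.20, against 0.60 to 0.78 on those 15 arrays. H2O2 replicate 4 had the lowest ribosomal RNA signal, 4.38. Replicate 4 was also the lowest of its group in the control (8.75), with acrolein (9.20) and with NEM (9.23).

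The main changes among the ER genes were in SIL1 and ERO1. SIL1, which helps the chaperone Kar2 release ADP, fell 2.24-fold after acrolein and 3.63-fold after NEM. ERO1, the oxidase that supplies disulfide bonds to Pdi1, rose 2.22-fold after acrolein and 1.93-fold after NEM. EUG1, a relative of PDI1, was 1.57-fold lower after H2O2 and 1.37-fold lower after NEM. The other 7 genes differed from the control by less than 0.3 on the log2 scale in every treatment.

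**Figure D1:**
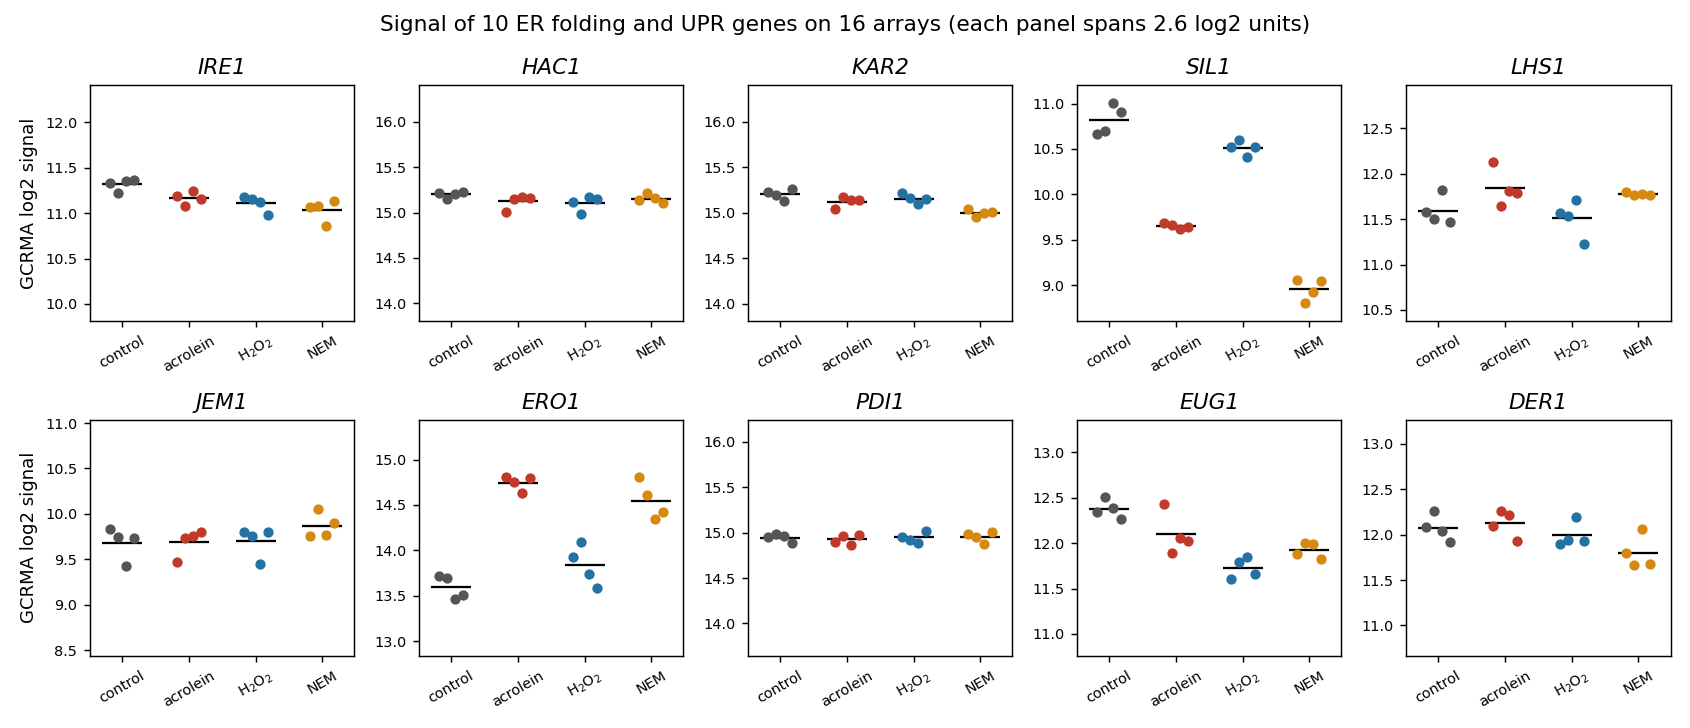
Log2 signal of each of the 10 ER genes on each of the 16 arrays, 4 points per group from replicate 1 at the left to replicate 4, with the group mean as a line and the same height of scale in every panel. SIL1 drops to 9.65 with acrolein and 8.96 with NEM, ERO1 climbs to 14.74 and 14.55, and PDI1 lies between 14.87 and 15.02 on all arrays.

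By limma's moderated test, with Benjamini-Hochberg adjustment over all 5785 probe sets and an adjusted p under 0.05 as a call, acrolein changed 3 of the 10 genes, 1 upward and 2 downward. Over all probe sets acrolein changed 64.0%, with 27.2% higher and 36.9% lower. H2O2 changed 3 of the 10, all downward, against 19.8% of all probe sets (9.23% higher and 10.6% lower). NEM changed 6, of which 1 rose and 5 fell, against 58.6% of all probe sets (26.4% higher and 32.2% lower). The 4 treated arrays lay wholly outside the range of the 4 control arrays for 2 of the genes with acrolein, 3 with H2O2 and 5 with NEM. Over all probe sets that share was 57.8%, 25.2% and 54.5%. The acrolein counts thus lay below the share of all probe sets, those for NEM near it and those for H2O2 slightly above it. The acrolein count of called genes moved with the cutoff. At an unadjusted limma p under 0.05 it was 6 of 10, against 3898 of 5785 probe sets. With the replicate number as a block acrolein raised 2 and lowered 2, and no share of all probe sets was computed for that fit. The median difference of the 10 genes was -0.05 with acrolein, -0.08 with H2O2 and -0.13 with NEM, against -0.05, -0.02 and -0.01 over all probe sets. In absolute size the median was 0.12, 0.09 and 0.24, against 0.33, 0.13 and 0.29 over all probe sets. An F-test over the 3 treatments called 7 of the 10 genes, against 79.8% of all probe sets. HAC1, PDI1 and JEM1 were not called (adjusted p = 0.242, 0.918 and 0.33), and LHS1 (adjusted p = 0.0459) and DER1 (adjusted p = 0.0491) passed narrowly. At an adjusted p under 0.01, 1 of the 10 genes was called for H2O2 against control, where 10.4% of all probe sets were, and 1 for acrolein against NEM, where 33.8% were. The 3 treatments share their control arrays.

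**Figure D2:**
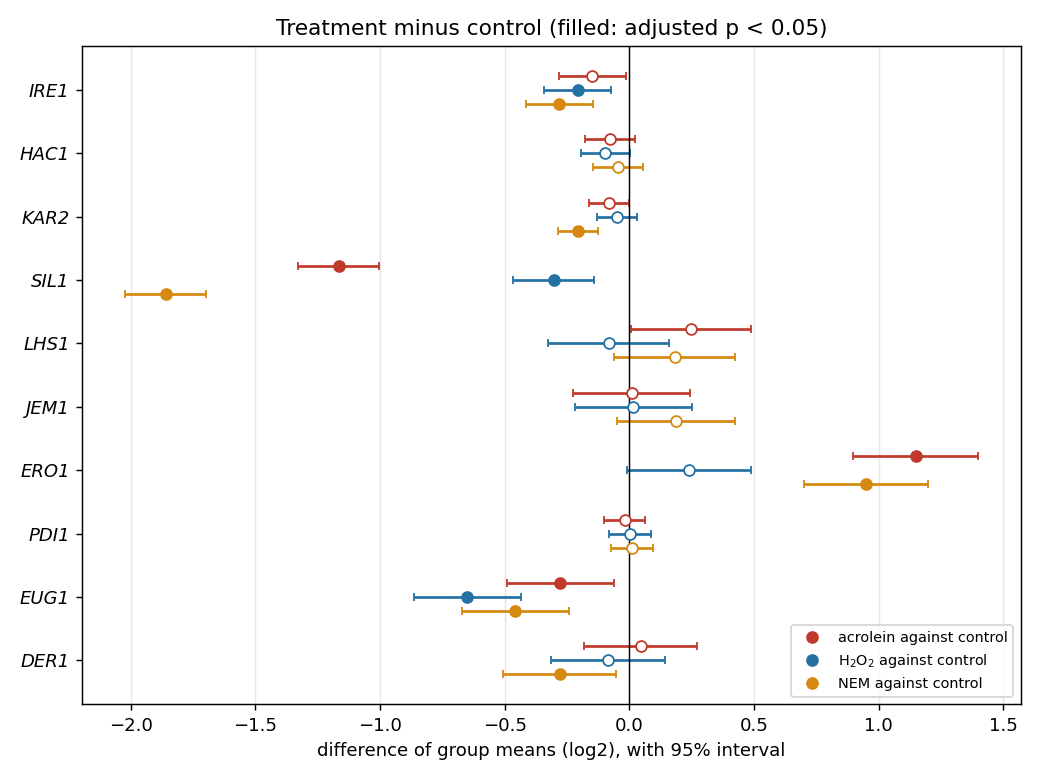
Difference of each treatment from the control for the 10 ER genes (x axis, log2) with the 95% interval of the limma fit, filled where called and open where not. SIL1 lies farthest to the left for acrolein (-1.17) and NEM (-1.86), and ERO1 farthest to the right, at 1.15 and 0.95, whereas the PDI1 and HAC1 intervals all reach 0.

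IRE1, the kinase and endoribonuclease that senses unfolded proteins, read 11.33, 11.22, 11.36 and 11.36 on control replicates 1 to 4. With acrolein it read 11.19, 11.08, 11.24 and 11.16, with H2O2 11.18, 11.15, 11.13 and 10.98, and with NEM 11.07, 11.08, 10.86 and 11.13. All H2O2 and NEM arrays lay below all control arrays, and 3 of 4 acrolein arrays did. IRE1 fell by 0.28 ± 0.06 after NEM (SE, n = 4 per group; limma adjusted p = 0.00155). With H2O2 it fell by 0.21 ± 0.06 (adjusted p = 0.0318), which no longer passed when control replicate 1, 3 or 4 or H2O2 replicate 3 or 4 was left out (adjusted p up to 0.0945) or with the trended and robust prior (adjusted p = 0.0529). The acrolein difference of -0.15 ± 0.06 was not called (adjusted p = 0.0506), and the 95% interval ran from -0.28 to -0.01. It passed without control replicate 2 (-0.18, adjusted p = 0.0294), without acrolein replicate 3 (-0.17, adjusted p = 0.0417), with only the 2 groups fitted (adjusted p = 0.0407) and without acrolein replicate 1 and H2O2 replicate 4 together (-0.16, adjusted p = 0.0496).

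HAC1 stayed near the upper end of the scale, whose highest values were 16.10 to 16.28 on these arrays. It read 15.22, 15.15, 15.21 and 15.23 in the control, and 15.01, 15.15, 15.17 and 15.17 with acrolein. The H2O2 arrays read 15.12, 14.98, 15.17 and 15.15, and the NEM arrays 15.14, 15.22, 15.16 and 15.10. Every group overlapped the control. The differences were -0.08 ± 0.05 for acrolein (95% interval -0.18 to 0.02), -0.10 ± 0.05 for H2O2 (-0.20 to 0.00) and -0.05 ± 0.05 for NEM (-0.14 to 0.05), none of them called (limma adjusted p = 0.159, 0.162 and 0.418). The lowest acrolein value came from replicate 1, the array with high ribosomal RNA signal, and without it the acrolein difference was -0.04 (adjusted p = 0.4545).

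KAR2 encodes the Hsp70 chaperone of the ER lumen, which binds unfolded chains, pulls them through the translocon and holds Ire1 inactive. Its signal was 15.23, 15.19, 15.13 and 15.26 in the control and 15.04, 14.95, 14.99 and 15.00 with NEM. All NEM arrays were below all control arrays, and KAR2 fell by 0.21 ± 0.04 (limma adjusted p = 0.00032), which is a 1.15-fold difference. With acrolein it read 15.04, 15.17, 15.14 and 15.14, a difference of -0.08 ± 0.04 (adjusted p = 0.0674), and with H2O2 15.21, 15.16, 15.10 and 15.15, a difference of -0.05 ± 0.04 (adjusted p = 0.382). Both groups overlapped the control. The acrolein difference passed without control replicate 3 (-0.11, adjusted p = 0.0264) and after quantile normalization (-0.09, adjusted p = 0.0457). Without acrolein replicate 1 it was -0.05. KAR2 read above 14.9 on every array, so it too lay near the upper end of the scale. The upper 95% bounds of its differences were 0.00 for acrolein, 0.03 for H2O2 and -0.13 for NEM.

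SIL1 codes for a nucleotide exchange factor of Kar2. It read 10.66, 10.69, 11.00 and 10.91 in the control and 9.68, 9.66, 9.62 and 9.65 with acrolein. The NEM arrays read 9.06, 8.81, 8.92 and 9.04, and the H2O2 arrays 10.52, 10.60, 10.41 and 10.53. The 4 groups did not overlap anywhere, in the order control, H2O2, acrolein, NEM from high to low. SIL1 fell by 1.17 ± 0.08 after acrolein (limma adjusted p = 2.21e-08) and fell by 1.86 ± 0.08 after NEM (adjusted p = 1.92e-10). After H2O2 it fell by 0.30 ± 0.08 (adjusted p = 0.0123). With single arrays left out, or acrolein replicate 1 and H2O2 replicate 4 together, the differences ran from -1.22 to -1.10 for acrolein, from -1.91 to -1.80 for NEM and from -0.36 to -0.24 for H2O2, all called. Of the 5785 probe sets, 112 were as low as SIL1 or lower in their NEM difference and 288 in their acrolein difference.

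LHS1 makes a second Hsp70-like protein of the lumen, which also acts as an exchange factor for Kar2. It was not called after any of the 3 treatments. The control read 11.58, 11.50, 11.83 and 11.47, acrolein 12.12, 11.64, 11.81 and 11.79, H2O2 11.56, 11.54, 11.71 and 11.23, and NEM 11.80, 11.76, 11.78 and 11.77. Control replicate 3 lay above all NEM arrays, and each treatment overlapped the control. The acrolein difference of 0.25 ± 0.11 was not called (limma adjusted p = 0.0667). It was called with the replicate number as a block, which pairs arrays of these groups (0.25 ± 0.10, adjusted p = 0.0391), and without control replicate 3 (0.33, adjusted p = 0.0228) or acrolein replicate 2 (0.31, adjusted p = 0.0305). It was 0.15 without acrolein replicate 1, its highest array (adjusted p = 0.216). For NEM the difference was 0.18 ± 0.11 (adjusted p = 0.182, and 0.048 in the fit without acrolein replicate 1 and H2O2 replicate 4) and for H2O2 -0.08 ± 0.11 (adjusted p = 0.666). The H2O2 difference became 0.01 without H2O2 replicate 4.

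JEM1 encodes a J-domain partner of Kar2. Its signals ran from 9.42 to 10.05 over all 16 arrays. The differences were 0.01 ± 0.11 for acrolein (95% interval -0.23 to 0.24), 0.02 ± 0.11 for H2O2 (-0.22 to 0.25) and 0.19 ± 0.11 for NEM (-0.05 to 0.42). None was called (limma adjusted p = 0.97, 0.965 and 0.16). The NEM difference passed after quantile normalization (0.26, adjusted p = 0.049) and was 0.10 without control replicate 3 (adjusted p = 0.443). NEM replicates 2 and 4, at 10.05 and 9.90, lay above the control maximum of 9.83.

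Among the disulfide genes, ERO1 rose after acrolein and NEM, and PDI1 was not called after any treatment. ERO1 read 13.72, 13.70, 13.47 and 13.51 in the control and 14.81, 14.75, 14.63 and 14.80 with acrolein. With NEM it read 14.81, 14.61, 14.34 and 14.42, and with H2O2 13.93, 14.09, 13.74 and 13.59. All acrolein and NEM arrays were above all control arrays, as were 3 of 4 H2O2 arrays. With acrolein ERO1, at 14.63 to 14.81, also came near the upper end of the scale. The rise was 1.15 ± 0.12 for acrolein (limma adjusted p = 1.78e-06) and 0.95 ± 0.12 for NEM (adjusted p = 1.05e-05). With arrays left out it ran from 1.11 to 1.19 and from 0.86 to 1.02. The H2O2 difference of 0.24 ± 0.12 was not called (adjusted p = 0.168, 95% interval -0.01 to 0.49), and it was 0.16 without H2O2 replicate 2 (adjusted p = 0.419). Of the 5785 probe sets, 311 had an acrolein difference as large as that of ERO1 or larger, and 290 a NEM difference.

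PDI1, the main protein disulfide isomerase and the partner that Ero1 oxidises, read 14.95, 14.98, 14.96 and 14.88 in the control. Acrolein gave 14.90, 14.96, 14.87 and 14.97, H2O2 14.96, 14.92, 14.89 and 15.02, and NEM 14.99, 14.95, 14.87 and 15.00. The 4 groups overlapped fully. Its differences were -0.02 ± 0.04, 0.00 ± 0.04 and 0.01 ± 0.04, with 95% intervals of -0.10 to 0.06, -0.08 to 0.09 and -0.07 to 0.09 (limma adjusted p = 0.699, 1.0 and 0.862). The signs of all 3 changed in some other setting, the acrolein one after quantile normalization and the H2O2 one after median centring. Like KAR2 and HAC1, PDI1 lay near the upper end of the scale, and the pooled SD of its arrays was 0.05, against a median of 0.13 over all probe sets.

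EUG1, a nonessential relative of PDI1 in the ER lumen, was lower in all treatments. It read 12.35, 12.51, 12.39 and 12.27 in the control and 11.61, 11.80, 11.85 and 11.66 with H2O2. With NEM it read 11.88, 12.00, 11.99 and 11.82, and with acrolein 12.43, 11.89, 12.06 and 12.03. All H2O2 and NEM arrays lay below all control arrays, whereas acrolein replicate 1 lay inside the control range. EUG1 fell by 0.65 ± 0.10 after H2O2 (limma adjusted p = 0.00044) and by 0.46 ± 0.10 after NEM (adjusted p = 0.00143). The acrolein fall of 0.28 ± 0.10 (adjusted p = 0.0264) was 0.39 without acrolein replicate 1 (adjusted p = 0.000694). Its call ended without control replicate 2 or 3 or acrolein replicate 2, 3 or 4 (adjusted p up to 0.0857), after quantile normalization (adjusted p = 0.066) and with only the control and acrolein arrays fitted (adjusted p = 0.0685). Of all probe sets, 143 had an H2O2 difference as low as that of EUG1 or lower.

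DER1 belongs to the membrane channel that moves misfolded lumenal proteins back to the cytosol. It read 12.08, 12.26, 12.04 and 11.92 in the control and 11.79, 11.67, 12.06 and 11.67 with NEM, where 3 of 4 arrays lay below the control. NEM lowered it by 0.28 ± 0.11 (limma adjusted p = 0.0355), but the call ended without any 1 of control replicates 1, 2 and 3 and NEM replicates 1, 2 and 4 (adjusted p up to 0.11). It also ended after quantile normalization (adjusted p = 0.0594) and with only the control and NEM arrays fitted (adjusted p = 0.0579). With acrolein DER1 read 12.10, 12.26, 12.21 and 11.92, and with H2O2 11.90, 11.94, 12.20 and 11.93. Those differences were 0.05 ± 0.11 (adjusted p = 0.737) and -0.09 ± 0.11 (adjusted p = 0.633).

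The treatments were also set against each other, with the doses as given, which differ, so the differences rank no potency. Acrolein and H2O2 differed in 4 of the 10 genes, against 55.9% of all probe sets. ERO1 was 0.91 ± 0.12 higher with acrolein (limma adjusted p = 2.36e-05), EUG1 0.37 ± 0.10 higher (adjusted p = 0.00631) and SIL1 0.86 ± 0.08 lower, a difference of -0.86 (adjusted p = 7.74e-07). The LHS1 difference of 0.33 ± 0.11 (adjusted p = 0.0223) ended as a call without acrolein replicate 1 or H2O2 replicate 4 (0.24 each, adjusted p = 0.0717 and 0.0726) and with only those 2 groups fitted (adjusted p = 0.0656), and was 0.14 without both (adjusted p = 0.179). EUG1 kept its call without acrolein replicate 1, at 0.26 (adjusted p = 0.0106), and without that array and H2O2 replicate 4, at 0.24 (adjusted p = 0.0292).

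NEM and H2O2 differed in 3 genes, against 52.3% of all probe sets. ERO1 was 0.71 ± 0.12 higher with NEM (limma adjusted p = 0.000169). SIL1 was lower with NEM, by -1.56 ± 0.08 (adjusted p = 1.96e-09), and KAR2 by -0.16 ± 0.04 (adjusted p = 0.00299). Acrolein and NEM differed in 3 genes, against 49.9% of all probe sets. SIL1 was 0.69 ± 0.08 higher with acrolein than with NEM (adjusted p = 1.15e-05) and KAR2 0.12 ± 0.04 higher (adjusted p = 0.0139). DER1 was 0.32 ± 0.11 higher (adjusted p = 0.0209), which did not pass without acrolein replicate 2 or 3 or NEM replicate 2 or 4 (adjusted p up to 0.0645) or with those 2 groups fitted alone (adjusted p = 0.0503). The ERO1 difference between acrolein and NEM was not called by the same model (0.20 ± 0.12, adjusted p = 0.169, 95% interval -0.05 to 0.45). With the replicate number as a block it passed (0.20 ± 0.08, adjusted p = 0.045), as it did without NEM replicate 1 (0.29, adjusted p = 0.0489). Without NEM replicate 3 it was 0.13 (adjusted p = 0.3845).

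**Figure D3:**
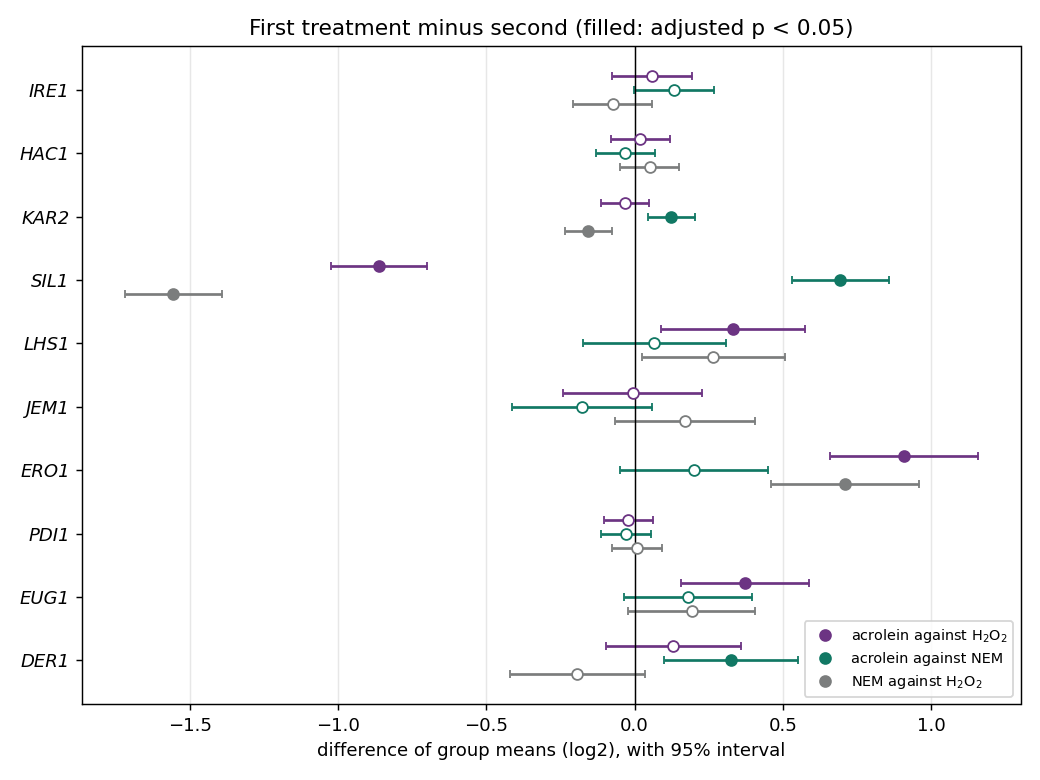
Difference between treatments for the 10 ER genes (x axis, log2, first named minus second) with the 95% interval of the limma fit, filled where called. SIL1 separates all 3 treatments, ERO1 separates acrolein and NEM from H2O2 at 0.91 and 0.71, and PDI1, HAC1, JEM1 and IRE1 have no filled point.

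Genes of related ER tasks were described as lists beside the 10. Each is to be read against the share of all probe sets called in the main fit, 64.0% with acrolein, 19.8% with H2O2 and 58.6% with NEM. No such share was computed for the replicate block or with arrays left out, so counts under those settings have no background beside them. In a list of 13 other folding and redox genes, acrolein raised 2 and lowered 7, NEM raised 4 and lowered 4, and H2O2 raised 1 (2 were called without control replicate 2 or H2O2 replicate 4). Under the replicate block acrolein raised 3 and lowered 7, NEM raised 5 and lowered 4, and H2O2 raised 3. The largest fall in that list was in FPR2 (YDR519W), an ER prolyl isomerase whose gene lies next to EUG1. Its signal was 12.72 to 12.83 in the control and 10.75 to 11.37 with NEM. It fell by 1.75 ± 0.11 after NEM (limma adjusted p = 1.52e-08) and by 0.62 ± 0.11 after acrolein (adjusted p = 0.000255). FMO1, an ER flavin monooxygenase that oxidises thiols such as glutathione, went the other way. It read 10.12 to 10.43 in the control and 11.47 to 11.90 with NEM, a rise of 1.39 ± 0.10 (adjusted p = 9.27e-08), and it rose by 0.43 ± 0.10 after H2O2 (adjusted p = 0.0102). CNE1, the calnexin of yeast, fell by 0.80 ± 0.11 after acrolein. CWH41, the glucosidase that trims new N-glycans, rose by 0.66 ± 0.11 after acrolein and 0.62 ± 0.11 after NEM. ERJ5, a J-protein of the ER, rose by 0.53 ± 0.04 and 0.59 ± 0.04.

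In ER-associated degradation, which returns misfolded proteins to the proteasome, acrolein raised 2 and lowered 4 of 13 genes, H2O2 raised 2 and lowered 2, and NEM raised 1 and lowered 4. With the replicate number as a block NEM raised 2 and lowered 6, and acrolein raised 2 and lowered 5. UBC7, which encodes a ubiquitin-conjugating enzyme, and CUE1, which encodes its membrane anchor, both fell. CUE1 fell by 0.75 ± 0.08 after acrolein and 0.78 ± 0.08 after NEM, and UBC7 fell by 0.53 ± 0.05 after each. DFM1, a relative of DER1, fell by 0.58 ± 0.08 after acrolein and 0.88 ± 0.08 after NEM. SSM4, the Doa10 ubiquitin ligase, rose after all 3 treatments, by 0.42 ± 0.06 with acrolein, 0.25 ± 0.06 with H2O2 and 0.87 ± 0.06 with NEM. All 4 arrays of each treatment lay above the control for SSM4. After H2O2 MNL1 rose by 0.37, and the H2O2 calls of MNL1 and SSM4 held in all 18 alternative settings. The H2O2 calls of USA1 (-0.44 ± 0.14) and UBC7 (-0.15 ± 0.05) ended in many settings. USA1 no longer passed without control replicate 1, 2 or 4 or H2O2 replicate 2 or 3, nor UBC7 without control replicate 1, 2 or 4 or any 1 H2O2 array. The H2O2 count of 4 was 2 without control replicate 1, 2 or 4 or H2O2 replicate 2 or 3.

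For entry into the ER, acrolein raised 2 and lowered 4 of 13 translocon and signal peptidase genes, NEM raised 2 and lowered 6, and H2O2 lowered 1, SPC3, at -0.27 ± 0.07, which did not pass without control replicate 3 or H2O2 replicate 1 or 4. Under the replicate block NEM raised 2 and lowered 7 of these genes, and H2O2 lowered 2. SEC63, the J-protein that brings Kar2 to the translocon, rose by 0.54 ± 0.07 after acrolein and 0.32 ± 0.07 after NEM. SSS1, a small translocon subunit, fell by 0.37 ± 0.10 and 0.62 ± 0.10, and the signal peptidase subunit gene SPC2 fell by 0.53 ± 0.07 and 0.44 ± 0.07. Of 9 oligosaccharyltransferase genes, whose products attach N-glycans, NEM raised 3 and lowered 5, acrolein raised 1 and lowered 1, and limma called 0 after H2O2, where 1 had an unadjusted p under 0.05. The NEM count of 8 was 5 without control replicate 3 or NEM replicate 4, and the H2O2 count was 1 without H2O2 replicate 3. In the block fit NEM raised 2 and lowered 5, and H2O2 lowered 1. OST4 fell by 1.00 ± 0.09 after NEM, with 11.42 to 11.69 against 12.34 to 12.66 in the control, and its acrolein difference of -0.12 ± 0.09 was not called. SWP1 fell by 0.43 ± 0.04 after NEM.

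Of the 11 genes of ER exit and of the retrieval of HDEL-tagged lumenal proteins, acrolein raised 2 and lowered 4, NEM lowered 4, and limma called 0 after H2O2, where 4 had an unadjusted p under 0.05. With the replicate number as a block NEM raised 1, SEC31, a coat subunit gene outside the naming rule (0.23 ± 0.05, limma adjusted p = 0.00275, against 0.139 without the block), and lowered 5. The NEM count was 2 without control replicate 2 or NEM replicate 1, and the H2O2 count 1 without control replicate 1 or H2O2 replicate 3 or 4. In the block fit H2O2 raised 1 and lowered 1. ERV29, a cargo receptor for soluble proteins, fell by 0.90 ± 0.07 after NEM, and ERD2, the HDEL receptor, by 0.32 ± 0.04. Among the 4 genes of HAC1 RNA processing and Ire1 control, TRL1, the ligase, was not called in any treatment (0.03 ± 0.11, 0.22 ± 0.11 and 0.11 ± 0.11 for acrolein, H2O2 and NEM). DCR2, a phosphatase that acts on Ire1, fell by 0.48 ± 0.08 after acrolein. After NEM TPT1, the tRNA phosphotransferase, fell by 0.40 ± 0.08 and PTC2, another phosphatase of Ire1, rose by 0.43 ± 0.14. With the replicate number as a block PTC2 also rose after acrolein (0.27 ± 0.07, limma adjusted p = 0.00651). That makes 2 called genes where there was 1. The block raised PTC2 after H2O2 as well (0.24 ± 0.07, limma adjusted p = 0.0311), where no gene was called without it.

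Of 12 cytosolic chaperone genes acrolein raised 7 and lowered 2, NEM raised 6 and lowered 3, and H2O2 raised 2 and lowered 2. Of all probe sets acrolein raised 27.2% and lowered 36.9%, NEM raised 26.4% and lowered 32.2%, and H2O2 raised 9.23% and lowered 10.6%. The H2O2 count of 4 was 2 without control replicate 1, 3 or 4 or H2O2 replicate 2 or 4. In the block fit H2O2 raised 2 and lowered 1 of these chaperone genes. Acrolein, NEM and H2O2 are given in that order next. Their median difference was 0.14, 0.11 and -0.02 for acrolein, NEM and H2O2, against -0.05, -0.13 and -0.08 for the 10 ER genes. YDJ1, a cytosolic J-protein, rose by 1.49 ± 0.07 after acrolein, 1.01 ± 0.07 after NEM and 0.76 ± 0.07 after H2O2, while SSA4, a stress-inducible Hsp70, fell by 0.52 ± 0.06 after NEM. The lists were chosen with earlier results of these data known.

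**Figure D4:**
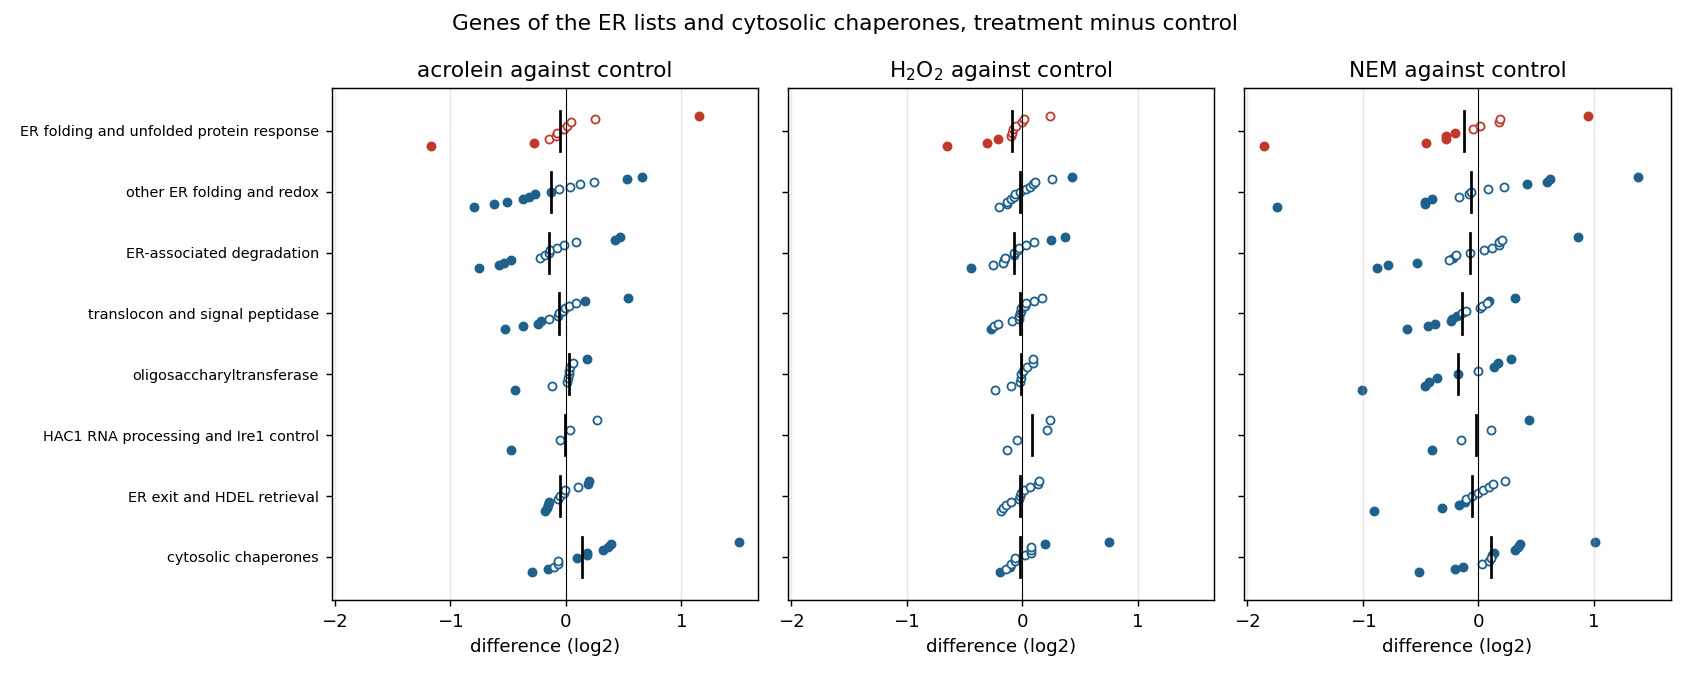
Difference from the control (x axis, log2) of every gene of the 10 ER genes (red) and of 7 related lists (blue) after acrolein, H2O2 and NEM, filled where called and open where not, with a bar at each list's median. The lists spread to both sides of 0, FPR2 lies at -1.75 and FMO1 at 1.39 after NEM, and the farthest H2O2 points are YDJ1 at 0.76 and EUG1 at -0.65.

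The genes whose 3 differences from the control lay nearest to those of a given ER gene were found by root mean square distance over the 3 treatments. For ERO1 they were PXR1 at a distance of 0.05, CCL1 at 0.06 and BMS1 at 0.07 on the log2 scale, and 14 of 5394 genes lay within 0.1. PXR1 differed from the control by 1.23 after acrolein, 0.23 after H2O2 and 0.96 after NEM. For EUG1 the nearest were NSL1 at 0.10, RCO1 at 0.11 and SPC110 at 0.12, and no gene lay within 0.1. For KAR2, whose differences were small, 282 genes lay within 0.1, with YHL048C-A, IOC4 and RAM2 nearest.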

How the data were processed

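Total RNA (8 µg per sample) was labelled and each sample was measured on 1 array. The authors normalised the arrays with GCRMA (per the submitters' processing notes, version not given in the sources used here) and deposited log2 values, which were used without further scaling. Probe sets were named with the array's own annotation, updated for 12 symbols from a RefSeq table (R64), and the brightest of a gene was kept. Left out were 166 control probe sets, 1747 of another yeast species (highest value 5.15) and probe sets constant on all arrays, which left 5785, of which 381 had no gene name and may include some of the other species. Over the 5404 named genes alone, acrolein changed 65.8%, H2O2 20.3% and NEM 60.2%.

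All 16 arrays were fitted together, each group having its own mean, by lmFit and eBayes (limma 3.58.1 in R 4.3.3), which left 12 degrees of freedom for the spread. The test is two-sided. The replicate number had no term in this fit. The replicate block, an alternative, was fitted to all 16 arrays, H2O2 included, so it is no paired test of 2 groups alone. The median standard error of a difference was 0.086 log2, and the number of arrays limits the precision. Python 3.11.15 did the rest. The fit was also run on simulated data whose arrays were independent, so that run does not cover paired arrays.

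Whether replicate numbers link arrays was judged from the correlation of their residuals, which ran from 0.20 to 0.45 between control and acrolein, 0.32 to 0.56 between control and NEM and from 0.32 to 0.45 between acrolein and NEM. Numbers therefore pair the arrays of those 3 groups, a pairing that the main fit leaves out. With H2O2 they ran from -0.36 to 0.69. At replicates 3 and 4 the same-numbered arrays correlated best (0.39 to 0.69), and at replicates 1 and 2 they did not (-0.36 to -0.05). H2O2 numbers thus pair only part of its arrays.

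The members, lists, tests and naming rule were chosen with earlier results of these data known. The rule covers all 10 members, up to 4 called genes with the largest difference per list and treatment, and the 3 nearest genes of KAR2, ERO1 and EUG1. Only part of the list genes that it covers are described in the text, so a gene not described may also have been called. TRL1, SEC31, SSM4, OST4 and PTC2 with acrolein, and PTC2 with H2O2, were added outside the rule. Promoter and protein motifs were planned but not analysed here.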

Additional observations from a re-analysis of the deposited data

Results flagged for a closer look

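On 3 occasions a single array stood apart from the other 3 arrays of their group, by the gap to the nearest array over the range of the group measured against Dixon's limit. HAC1 read 15.01 on acrolein replicate 1, against 15.15 to 15.17 on the others. JEM1 read 9.44 on H2O2 replicate 3, against 9.75 to 9.80. DER1 read 12.20 on H2O2 replicate 3, against 11.90 to 11.94. Among 40 groups examined, 3 were flagged, and chance flags about 1 in 20. Acrolein replicate 1 is also the array with high ribosomal RNA signal. Without it the HAC1 difference between acrolein and control was -0.04 in place of -0.08, not called either way (limma adjusted p = 0.4545 and 0.159).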

How the results depend on the processing

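Each of 60 differences of the 10 genes was recomputed under 18 alternatives, the one without acrolein replicate 1 and H2O2 replicate 4 chosen after seeing the data. Of 1080 values, 982 kept direction and side of the threshold, 39 lost and 19 gained a call, and 40 changed sign. Of 22 called differences 15 kept their call in all alternatives. At an adjusted p under 0.01 the count of called genes went from 3 to 1 for H2O2 against control (10.4% of all probe sets) and from 3 to 1 for acrolein against NEM (33.8%). Every sign change was in a difference that was not called, and the cause was not tested. Quantile normalization gave PDI1 0.0022 (acrolein against control) and -0.0002 (NEM against H2O2), JEM1 -0.0254 (H2O2 against control) and 0.0482 (acrolein against H2O2), and HAC1 -0.004 (acrolein against H2O2). Median centring gave PDI1 -0.0022 (H2O2 against control). With arrays left out, acrolein against control ran from -0.0773 to 0.0821 for JEM1 and from -0.0062 to 0.1124 for DER1. H2O2 against control ran from -0.0217 to 0.0216 for PDI1, from -0.1502 to 0.0102 for LHS1 and from -0.0704 to 0.1007 for JEM1, and NEM against control from -0.011 to 0.0376 for PDI1. Acrolein against H2O2 ran from -0.0408 to 0.0118 for PDI1, from -0.0211 to 0.072 for HAC1 and from -0.0917 to 0.1008 for JEM1. Acrolein against NEM ran from -0.048 to 0.0069 for HAC1 and from -0.0268 to 0.133 for LHS1, and NEM against H2O2 from -0.0114 to 0.0355 for PDI1. H2O2 numbers pair only part of its arrays. With the replicate block ERO1 passed for H2O2 against control (0.24, adjusted p = 0.0408) and LHS1 for NEM against H2O2 (0.27, adjusted p = 0.0354). Besides these and the block values given with the results, the block changed no call of the 10 genes. KAR2, HAC1 and PDI1 lie near the top of the scale, and ERO1 comes near it with acrolein.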
